A study of Xenopus laevis and Xenopus tropicalis with 12 samples.

Results

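The comparison asked where the same mRNA lies in the oocytes of 2 frog species: whether its vegetal against animal distribution in Xenopus laevis differed from that in Xenopus tropicalis. All 12 RNA-seq samples of the series entered it. Oocytes had been cut by hand into a vegetal and an animal hemisphere, and each hemisphere was a sample of its own. Vegetal and animal X. laevis samples numbered 4 each and came from stage VI oocytes. Female A gave the pairs A_t1 and A_t2, female B the pairs B_t1 and B_t2, each pair being a batch. Vegetal and animal X. tropicalis samples numbered 2 each and came from full-grown oocytes, with 1 pair from each of females 1 and 2. The labels gave no strain, age or treatment, and how many oocytes made up a sample was not given in the sources used here. Species goes together with the wording of the stage, the number of pairs and the sequencing depth. It also goes together with the follicle cell marker sums given below and with the counting of X. laevis reads under X. tropicalis identifiers. None of these can be told apart from species.

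The full-grown Xenopus oocyte is polar. Its pigmented animal hemisphere holds the nucleus, and its yolk-rich vegetal cortex holds germ plasm and mRNAs that instruct germ layers and germ cells in the embryo. In X. laevis such mRNAs are known to reach the vegetal cortex by an early route through the mitochondrial cloud or by a later route along microtubules, guided by elements in their untranslated regions and by RNA-binding proteins. Localization of this kind sets which embryonic cells inherit a maternal message.

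Total counts were 30416352 to 45235154 per X. laevis sample and 7772801 to 28392285 per X. tropicalis sample. Levels are given as CPM, the read count normalised to library size. In the shallowest X. laevis sample a count of 0 allowed at most 0.0986 CPM, and in the shallowest X. tropicalis sample with at most 0.386 CPM, from counting error alone. The 13 oocyte markers summed to 4666 to 6047 CPM in X. laevis vegetal, 3547 to 3911 CPM in X. laevis animal, 6595 to 7448 CPM in X. tropicalis vegetal and 4594 to 5784 CPM in X. tropicalis animal samples. The 13 follicle cell markers found summed to 296 to 368 CPM in X. laevis vegetal and 81.6 to 156 CPM in X. laevis animal samples. In X. tropicalis the sums were 1.09 to 1.70 CPM in vegetal and 0.908 to 2.47 CPM in animal samples. Only sums were taken, so which markers carry them is not shown. None of these follicle markers was at 0 in all samples, none could be tested between the species, and the part of follicle cells in the results was not tested. In such bulk samples, fewer cells of a type and less RNA per cell cannot be told apart.

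For each gene model the difference between species was the vegetal minus animal log2 fold change in X. laevis minus that in X. tropicalis. A positive difference means that the mRNA lay more on the vegetal side in X. laevis than in X. tropicalis, and a negative one that it lay more on the vegetal side in X. tropicalis. The difference says nothing of how abundant the mRNA was. Where a model or gene is called higher in a species, its vegetal minus animal change is meant, not its level. Of 11688 models tested in both species, 658 (5.63%) had a difference of at least 2-fold at an adjusted p under 0.05 (edgeR quasi-likelihood F test with Benjamini-Hochberg adjustment). The difference was higher in X. laevis for 337 models (2.88%) and higher in X. tropicalis for 321 (2.75%). In all 658 models, the 4 X. laevis pair values and the 2 X. tropicalis pair values did not overlap, which was also true of 42.4% of all models tested. At least 4-fold differences were called for 67 models (0.573%) and 68 models (0.582%) in these directions. Over all tested models the median difference was 0.03, and from the 5th to the 95th percentile differences ran from -0.88 to 0.91.

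**Figure D1:**
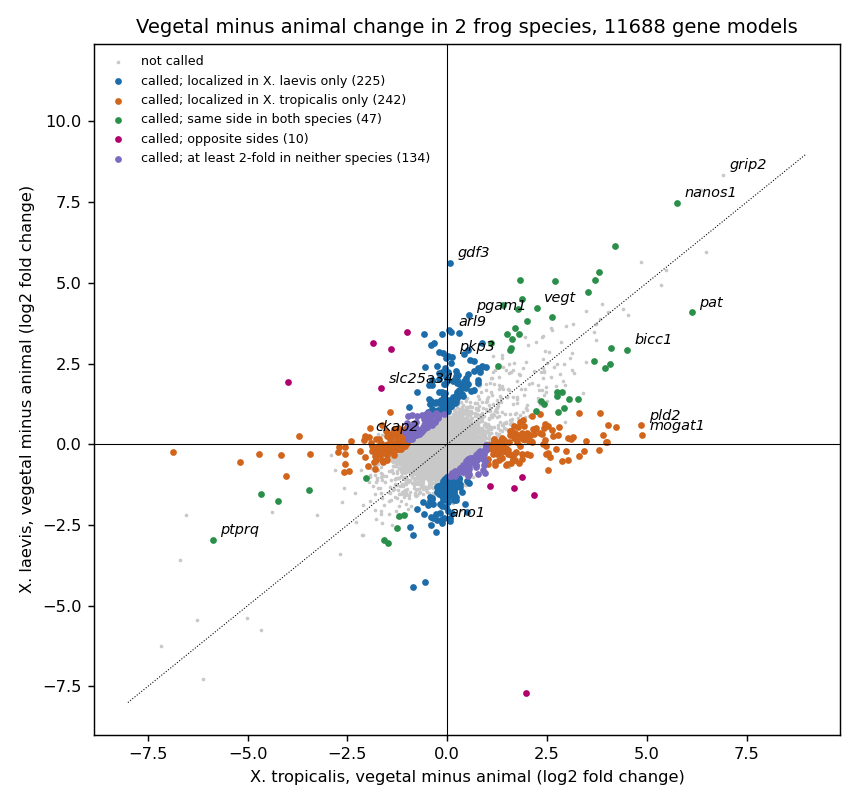
Each point is a gene model tested in both species; the vertical axis is the vegetal minus animal log2 fold change in X. laevis and the horizontal axis that in X. tropicalis, and the dotted line marks equal changes. Called models (colours, 658 of 11688) keep off the dotted line by rule, since a call needs a difference of at least 2-fold. Many lie along the axes, where only 1 species was localized, and grip2 and nanos1 sit at the upper right.

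The mRNAs with a called difference were mostly localized in 1 species and spread over both hemispheres in the other. Of the 658, 113 were vegetal in X. laevis alone (median log2 fold change 1.84 in X. laevis and 0.04 in X. tropicalis) and 112 were animal in X. laevis alone (-1.43 and -0.03). In X. tropicalis alone 128 were vegetal (median 0.03 in X. laevis and 1.78 in X. tropicalis) and 114 were animal (0.01 and -1.43). Here an mRNA counts as localized where it passed an adjusted p under 0.05 and 2-fold within that species, and as not localized in the other where it did not. Within X. tropicalis these calls rest on a fit with 1 residual degree of freedom. Another 47 lay on the same side in both species with unequal strength, 10 lay on opposite sides, and 134 reached the limits within neither species. Requiring a change of less than 0.5 log2 units in the other species, a limit added after the values were seen, left 92, 104, 103 and 103 models in the first 4 classes. These counts depended on the X. tropicalis pairs: without pair 1 the 4 classes held 60, 53, 94 and 53 models and without pair 2 46, 35, 77 and 51, while same-side models fell to 21 and 15 and those localized in neither species to 43 and 38.

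Among genes with a symbol and at least 5 CPM in the higher hemisphere of each species, tmem82 had the largest shift toward the vegetal side in X. laevis. The mRNA of tmem82 (model Xetrov72036346), a transmembrane protein, had 36.8, 57.2, 62.9 and 51.2 CPM in the X. laevis vegetal samples A_t1, A_t2, B_t1 and B_t2, against 4.12, 4.01, 5.68 and 5.62 CPM in their animal partners. In X. tropicalis it had 23.9 and 32.7 CPM in vegetal and 29.6 and 32.9 CPM in animal samples of females 1 and 2. All 4 X. laevis vegetal samples thus lay above all X. laevis animal samples, while the X. tropicalis hemispheres overlapped, and the difference was 3.55 ± 0.22 (log2, SE; 11.7-fold; adjusted p = 7.84e-05, edgeR).

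The glycolytic enzyme phosphoglycerate mutase, pgam1 (Xetrov72026885), was far more abundant. It had 990, 1251, 977 and 993 CPM in X. laevis vegetal samples and 64.1, 56.7, 82.9 and 61.8 CPM in X. laevis animal samples. In X. tropicalis it had 197 and 181 CPM in vegetal and 137 and 122 CPM in animal samples. The vegetal sample was higher in all 6 pairs, by a log2 fold change of 3.99 ± 0.15 in X. laevis and 0.55 ± 0.06 in X. tropicalis, and the difference was 3.44 ± 0.22 (10.9-fold; adjusted p = 8e-05, edgeR).

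The Arf-like small GTPase arl9 (Xetrov72022029) had 137, 200, 100 and 103 CPM in X. laevis vegetal and 14.6, 14.7, 9.35 and 8.94 CPM in X. laevis animal samples. X. tropicalis held it at 148 and 155 CPM in vegetal and 137 and 147 CPM in animal samples. The X. laevis hemispheres stood far apart and those of X. tropicalis close together, with a difference of 3.39 ± 0.16 (95% interval 3.02 to 3.75). The desmosomal armadillo protein plakophilin 3, pkp3 (Xetrov72008682), had 518, 701, 649 and 588 CPM in X. laevis vegetal and 89.9, 96.5, 91.1 and 93.3 CPM in X. laevis animal samples. In X. tropicalis its hemispheres had 213 and 232 CPM (vegetal) and 204 and 209 CPM (animal). The difference of pkp3 was 2.61 ± 0.13, with an adjusted p of 2.05e-05 (edgeR).

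The remaining genes of the 10 largest differences in this direction were slc25a34, trank1, armc5, ptprq, ppp1r2 and gk. The armadillo repeat gene armc5 (Xetrov72004606, 3.06 ± 0.38), trank1 (Xetrov72033052, 3.18 ± 0.40) and ppp1r2 (Xetrov72001906, 2.44 ± 0.32), an inhibitor of protein phosphatase 1, were vegetal in X. laevis and below 2-fold in X. tropicalis. Glycerol kinase, gk (Xetrov72029787), was vegetal in both species, with 266 to 429 CPM in X. laevis vegetal and 15.8 to 20.5 CPM in X. laevis animal samples, and with 103 and 46.0 CPM in X. tropicalis vegetal and 33.4 and 11.9 CPM in X. tropicalis animal samples. The receptor phosphatase ptprq (Xetrov72040948) differed in kind: it was animal in both species, less so in X. laevis (-2.96 ± 0.30) than in X. tropicalis (-5.86 ± 0.23). Its vegetal levels were low, 0.301 to 1.19 CPM in X. laevis and 0.262 and 0.520 CPM in X. tropicalis. Its call was lost without X. tropicalis pair 1 (adjusted p = 0.132) or pair 2 (adjusted p = 0.169, edgeR), where 19 alternatives gave adjusted p between 8.66e-13 and 0.169.

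All of the 10 largest differences in the other direction, under the same 5 CPM limit, were vegetal in X. tropicalis alone. The largest was that of mogat1 (Xetrov72005630), a monoacylglycerol acyltransferase of triacylglycerol synthesis. It had 89.1, 114, 143 and 109 CPM in X. laevis vegetal samples and 85.7, 90.4, 90.0 and 101 CPM in X. laevis animal samples. In X. tropicalis it had 250 and 241 CPM in vegetal and 7.60 and 8.59 CPM in animal samples. The X. tropicalis pair values of 5.03 and 4.80 lay well above the X. laevis pair values of 0.06 to 0.66, and the difference was -4.63 ± 0.20 (24.7-fold; adjusted p = 1.38e-05, edgeR).

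Phospholipase D2, pld2 (Xetrov72003126), which makes phosphatidic acid, had 81.5, 99.6, 103 and 109 CPM in X. laevis vegetal and 58.8, 68.2, 64.1 and 69.3 CPM in X. laevis animal samples. In X. tropicalis it had 54.0 and 27.1 CPM in vegetal samples and 1.90 and 0.904 CPM in animal samples. The vegetal sample was higher in all 6 pairs, but far more so in X. tropicalis, and the difference was -4.28 ± 0.17 (19.5-fold). The sorting nexin-like kinase gene pxk (Xetrov72009367) had 13.3 to 18.1 CPM in X. laevis vegetal and 15.8 to 19.3 CPM in X. laevis animal samples, against 77.3 and 90.5 CPM in X. tropicalis vegetal and 6.85 and 5.74 CPM in X. tropicalis animal samples. The ranges of the X. laevis hemispheres overlapped, and the difference was -3.94 ± 0.18.

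The microtubule affinity-regulating kinase mark4 (Xetrov72013130) had 118 to 125 CPM in X. laevis vegetal and 97.7 to 112 CPM in X. laevis animal samples. X. tropicalis samples had 160 and 142 CPM in vegetal and 18.2 CPM in both animal samples, and the difference was -2.84 ± 0.12. The others of these 10 were tbc1d20.2 (Xetrov72041586, -3.93 ± 0.29), of the TBC family of Rab regulators, the mitochondrial glutamate carrier slc25a22 (Xetrov72021872, -3.44 ± 0.33), tmem54 (Xetrov72031487, -3.33 ± 0.37), the lysophosphatidic acid phosphatase acp6 (Xetrov72005805, -3.20 ± 0.28), the zinc finger gene znf238.2 (Xetrov72013605, -2.90 ± 0.22) and the leucine-rich repeat gene lrrc24 (Xetrov72007990, -2.54 ± 0.34). The mRNA of tmem54 had X. laevis pair values of -0.22, -1.15, -1.56 and -0.32, all on the animal side, and slc25a22 had 0.90, 1.00, -0.08 and 0.51. Adjusted p-values of the 10 lay between 1.38e-05 and 0.00216 (edgeR). Only lrrc24 among these 10 lost its call in a leave-out, without X. tropicalis pair 2 (adjusted p = 0.0564), and its 19 alternatives gave adjusted p between 8.29e-17 and 0.0564.

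**Figure D2:**
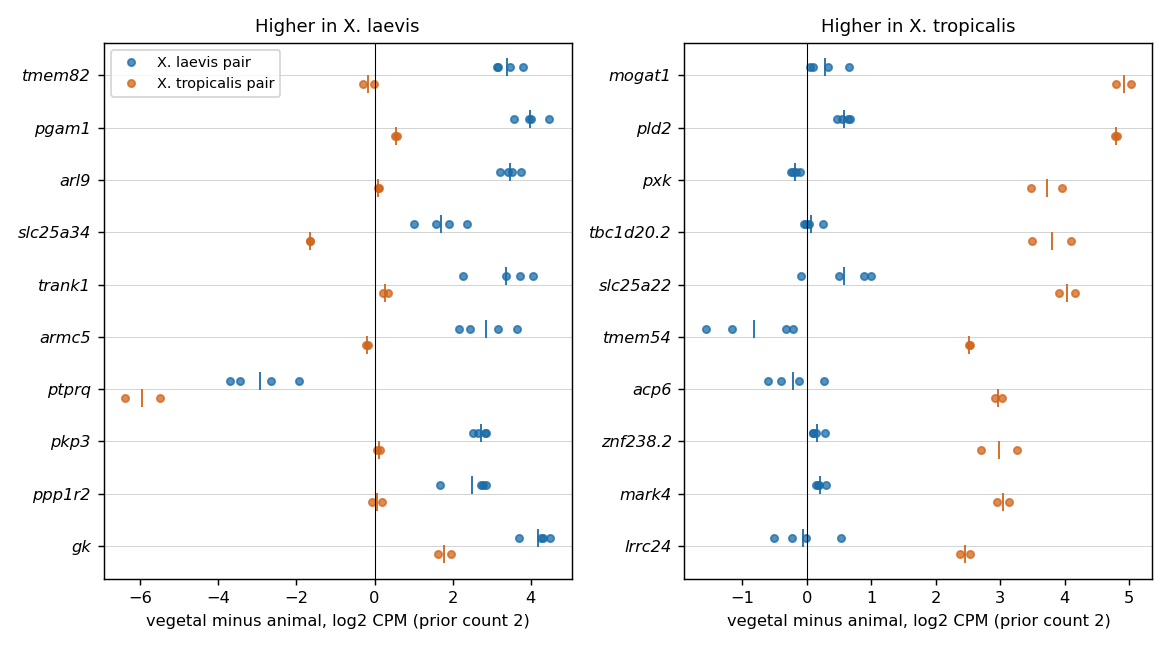
Dots give the vegetal minus animal difference in log2 CPM of each pair for the 10 largest differences in each direction (left panel higher in X. laevis, right panel higher in X. tropicalis); ticks mark the mean of a species. In the right panel both X. tropicalis dots of mogat1 and pld2 lie near 5 while the 4 X. laevis dots lie between 0 and 1; in the left panel ptprq is negative in both species.

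**Figure D3:**
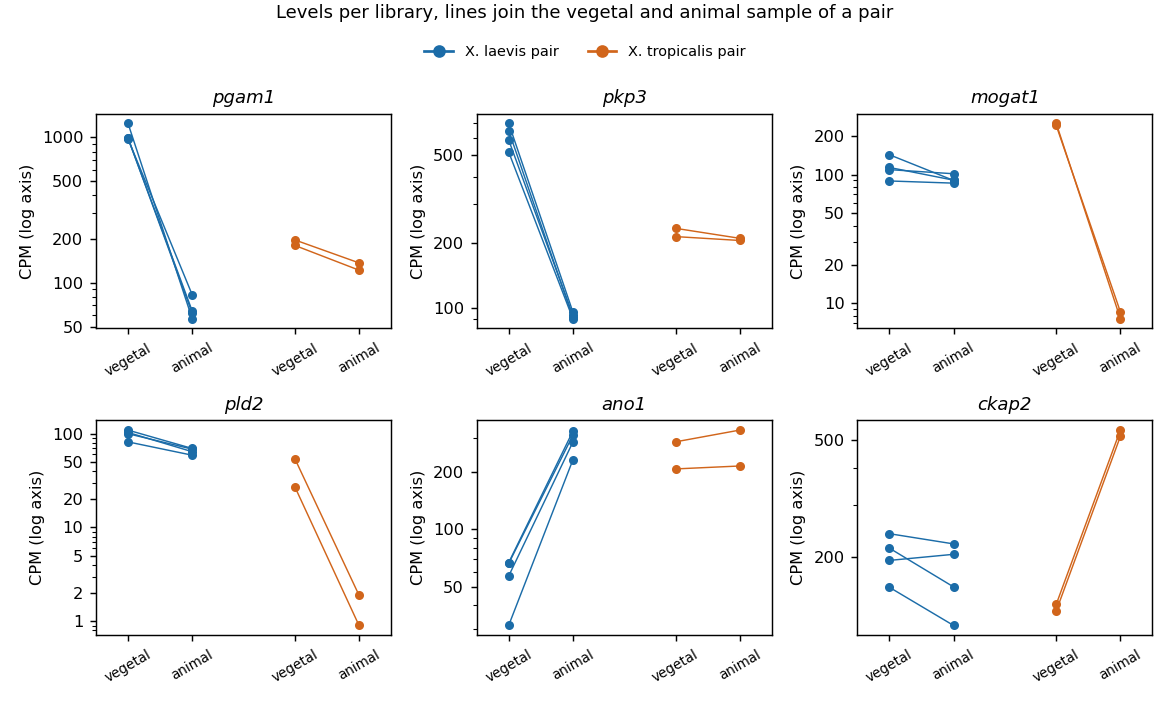
CPM in every sample (log axis) of pgam1, pkp3, mogat1, pld2, ano1 and ckap2, with lines joining the vegetal and animal sample of a pair. Steep lines stand in X. laevis alone for pgam1, pkp3 and ano1, and in X. tropicalis alone for mogat1 and ckap2; for pld2 the lines of both species slope down and those of X. tropicalis are the steeper.

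Animal localization in 1 species was also found among abundant mRNAs; the following examples were chosen after their values were seen. The calcium-activated chloride channel ano1 (Xetrov72008519), which in X. laevis eggs carries the fast electrical block to polyspermy, had 56.9, 31.4, 66.9 and 66.2 CPM in X. laevis vegetal and 286, 231, 326 and 311 CPM in X. laevis animal samples. X. tropicalis samples had 287 and 207 CPM in vegetal and 331 and 215 CPM in animal samples. The X. laevis hemispheres were fully apart and the X. tropicalis ranges overlapped, with a difference of -2.31 ± 0.19 (adjusted p = 0.000237, edgeR). The FERM domain gene frmd8 (Xetrov72009742, -2.21 ± 0.31) and the lysosomal membrane gene tmem192 (Xetrov72020870, -2.19 ± 0.26) were also animal in X. laevis alone. The mRNA of tmem192 had 1.26 to 2.57 CPM in X. laevis vegetal and 7.32 to 11.3 CPM in X. laevis animal samples, against 27.1 and 29.2 CPM in X. tropicalis vegetal and 30.8 and 32.3 CPM in X. tropicalis animal samples, which did not overlap. The mRNA of frmd8 lost its call without X. tropicalis pair 2 (adjusted p = 0.0572; 3.45e-24 to 0.0572 over 20 alternatives).

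The converse, animal in X. tropicalis alone, held for the spindle-associated gene ckap2 (Xetrov72029489). It had 157, 194, 214 and 239 CPM in X. laevis vegetal and 117, 204, 158 and 221 CPM in X. laevis animal samples, against 131 and 138 CPM in X. tropicalis vegetal and 513 and 539 CPM in X. tropicalis animal samples. The X. laevis ranges overlapped while the X. tropicalis hemispheres stood apart, and the difference was 2.19 ± 0.16 (adjusted p = 0.000153, edgeR). The nucleotide sugar transporter slc35d1 (Xetrov72010254, 2.31 ± 0.25) and the autophagy kinase ulk1 (Xetrov72019162, 2.40 ± 0.31) were in the same class. The mRNA of ulk1 leaned the other way in X. laevis, by a log2 fold change of 0.99 ± 0.18, against -1.43 ± 0.11 in X. tropicalis. Its call was lost without X. tropicalis pair 2 (adjusted p = 0.0503; 2.78e-27 to 0.0503 over 20 alternatives).

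The 10 models localized to opposite hemispheres included 4 with a symbol, and 2 of the 10 reached 5 CPM in both species. Of these 2, the one with a symbol was slc25a34 (Xetrov72018534), of the mitochondrial carrier family. It had 23.6, 39.6, 15.9 and 12.1 CPM in X. laevis vegetal and 6.30, 7.64, 5.33 and 5.90 CPM in X. laevis animal samples. X. tropicalis vegetal samples had 22.9 and 31.1 CPM and X. tropicalis animal samples 72.5 and 97.6 CPM. Vegetal samples were thus higher in 4 of 4 X. laevis pairs and lower in both X. tropicalis pairs, with log2 fold changes of 1.73 ± 0.20 and -1.65 ± 0.09 and a difference of 3.38 ± 0.32 (adjusted p = 0.000416, edgeR).

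The other opposite genes with a symbol, cyth2, rsad2 and camk2a, were low in at least 1 species. The Arf exchange factor cyth2 (Xetrov72017444) had 103 to 137 CPM in X. laevis vegetal and 27.7 to 35.3 CPM in X. laevis animal samples, against 0.131 and 0.236 CPM in X. tropicalis vegetal and 2.89 and 3.61 CPM in X. tropicalis animal samples. Its difference of 5.96 ± 0.33 therefore rests on few X. tropicalis reads. The interferon-induced gene rsad2 (Xetrov72001260) was vegetal in X. laevis, with a difference of 5.01 ± 0.66, and lost its call without X. tropicalis pair 2 (adjusted p = 0.0531; 5.86e-12 to 0.0531 over 19 alternatives). The calcium/calmodulin-dependent kinase camk2a (Xetrov72023358) was animal in X. laevis and vegetal in X. tropicalis, with a difference of -2.90 ± 0.33.

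Among models tested in both species, 345 (2.95%) were called vegetal in X. laevis and 356 (3.05%) in X. tropicalis, and 156 were called in both, 45.2% of the X. laevis and 43.8% of the X. tropicalis calls. Animal calls numbered 370 (3.17%) in X. laevis and 368 (3.15%) in X. tropicalis, and 92 were shared, 24.9% and 25% of these. A missing call in the other species was not always a difference. Of the 189 models vegetal in X. laevis and not called in X. tropicalis, 118 differed between the species by the test of the difference itself, and of the 200 in the reverse case 133 did. On the animal side the counts were 117 of 278 and 119 of 276, so that 161 and 157 models called animal in 1 species alone had no called difference. Across the 11688 models, which share libraries and are not independent replicates, the changes of the 2 species correlated at r = 0.506 (Spearman rho = 0.340).

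The absence of a call was also read against its interval. The 95% interval of the difference lay within 2-fold in either direction for 7900 of 11688 models (67.6%), for 57 of the 156 models vegetal in both species, and for 38 of the 92 animal in both. For the other models without a call, the interval reached past 2-fold.

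The 20 mRNAs listed as vegetal from general knowledge of Xenopus oocytes were called vegetal in both species, and 8 of them (40%, against 5.63% of all models tested) differed in strength. Most models tested were localized in neither species, so models vegetal in both are the nearer comparison. Of those 156 models, 37 had a called difference. The difference was higher in X. laevis for vegt, nanos1, gdf1, dazl and sybu, and higher in X. tropicalis for pat, bicc1 and rtn3. The list's median difference was 0.31, against 0.03 over all models. The list was assembled with results of these samples known, and its share is a description.

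The T-box transcription factor vegt (Xetrov72020640), which specifies endoderm and mesoderm, had 1375, 1877, 1503 and 1471 CPM in X. laevis vegetal and 65.4, 66.4, 120 and 89.0 CPM in X. laevis animal samples. The X. tropicalis samples held 46.3 and 65.9 CPM in vegetal and 10.4 and 13.3 CPM in animal samples. The log2 fold change reached 4.23 ± 0.19 in X. laevis, against 2.25 ± 0.10 in X. tropicalis, and pair values of 3.64 to 4.82 did not overlap those of 2.15 and 2.31. The difference was 1.98 ± 0.30 (adjusted p = 0.00398, edgeR). It was lost as a call without X. tropicalis pair 1 (adjusted p = 0.0584) or pair 2 (0.0703), with adjusted p between 1.71e-17 and 0.0703 over 20 alternatives.

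The other 4 with a higher difference in X. laevis were nanos1, gdf1, dazl and sybu. The germline translational repressor nanos1 (Xetrov72027613) had pair values of 6.56, 8.48, 7.18 and 7.13 in X. laevis and of 6.08 and 5.64 in X. tropicalis, with a difference of 1.66 ± 0.37 (adjusted p = 0.0200, edgeR). Its X. laevis animal samples had 0.415, 0.274, 0.761 and 0.612 CPM, against 3.05 and 6.08 CPM in X. tropicalis animal samples. At such low X. laevis animal levels the difference is uncertain in size. The TGF-beta ligand gdf1, known as Vg1 (Xetrov72021321), had 1314, 1745, 1064 and 1291 CPM in X. laevis vegetal and 28.6, 27.2, 47.8 and 31.9 CPM in X. laevis animal samples, against 248 and 264 CPM in X. tropicalis vegetal and 18.8 and 18.5 CPM in X. tropicalis animal samples, with a difference of 1.55 ± 0.36 (adjusted p = 0.0235, edgeR). The germ cell RNA-binding gene dazl (Xetrov72021859) differed by 1.37 ± 0.29, and the kinesin-linked gene sybu (Xetrov72033767) by 1.16 ± 0.29. In none of these 4 genes did the pair values of the species overlap. The same held for all 658 called models and for 42.4% of all models tested, so it adds no support. All 4 calls were lost when either X. tropicalis pair was left out, with the lowest of these adjusted p at 0.0785 (dazl without pair 1) and the highest at 0.292 (sybu without pair 2). The call of sybu was also lost without X. laevis pair A_t2 (difference 0.93) or B_t2 (adjusted p = 0.0687). Over 20 alternatives the adjusted p reached from 6.43e-09 to 0.274 for nanos1, 3.38e-08 to 0.179 for gdf1, 7.34e-10 to 0.203 for dazl and 4.45e-07 to 0.292 for sybu.

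More strongly vegetal in X. tropicalis was pat (Xetrov72002782), a germ plasm mRNA of X. laevis. It had 74.7, 114, 74.0 and 104 CPM in X. laevis vegetal and 4.64, 4.85, 6.06 and 5.79 CPM in X. laevis animal samples, against 341 and 365 CPM in X. tropicalis vegetal and 3.47 and 5.94 CPM in X. tropicalis animal samples. The hemispheres were apart in both species, and the difference was -2.12 ± 0.28 (adjusted p = 0.00207, edgeR). The RNA-binding translational regulator bicc1 (Xetrov72025127) had 420, 473, 365 and 475 CPM in X. laevis vegetal and 50.7, 66.4, 54.2 and 55.7 CPM in X. laevis animal samples, and in X. tropicalis 885 and 777 CPM in vegetal and 34.7 and 36.9 CPM in animal samples. Its difference was -1.60 ± 0.15 (adjusted p = 0.000414, edgeR). The reticulon rtn3 (Xetrov72028538) differed by -1.11 ± 0.20, and lost its call without X. tropicalis pair 1 (adjusted p = 0.104) or pair 2 (0.0909), within 5.41e-13 to 0.104 over 20 alternatives.

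**Figure D4:**
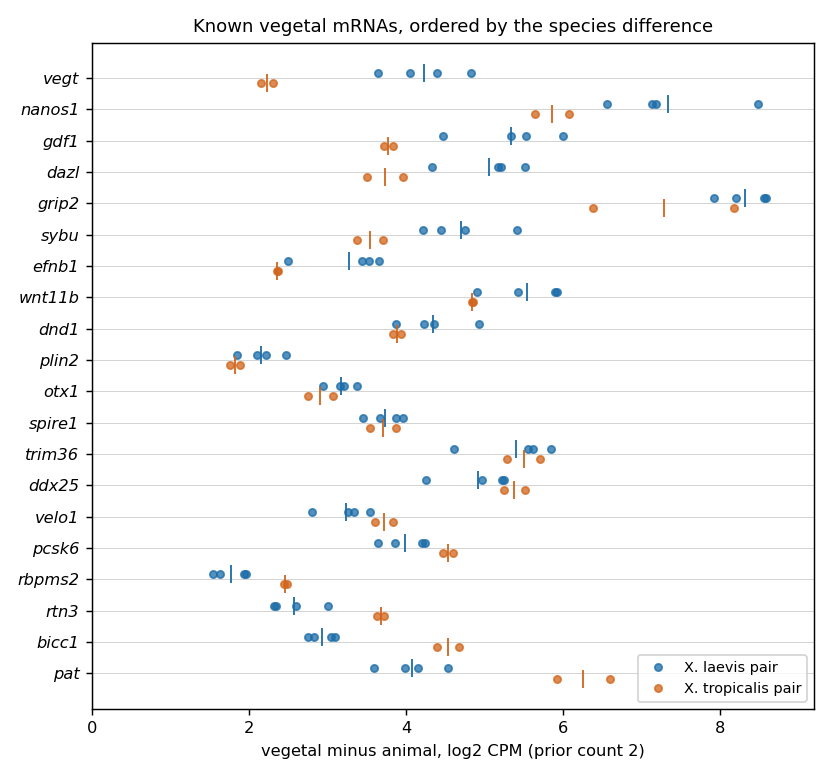
Vegetal minus animal difference in log2 CPM of each pair for the 20 known vegetal mRNAs, ordered by the difference between species, with ticks at the mean of a species. X. laevis dots lie to the right of X. tropicalis dots for vegt, nanos1, gdf1, dazl and sybu, mixed for spire1 and trim36, and to the left for rbpms2, rtn3, bicc1 and pat.

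The other 12 known vegetal mRNAs had no called difference, with intervals of unlike width. The actin nucleator spire1 (Xetrov72016949) differed by 0.02 ± 0.17 (95% interval -0.38 to 0.41), with 1004 to 1381 CPM in X. laevis vegetal and 79.2 to 112 CPM in X. laevis animal samples, and with 417 and 669 CPM in X. tropicalis vegetal and 35.7 and 45.5 CPM in X. tropicalis animal samples. The lipid droplet protein plin2 (0.33, interval -0.04 to 0.70), the homeobox gene otx1 (0.28, -0.10 to 0.67) and the ubiquitin ligase trim36 (-0.08, -0.80 to 0.63), which acts in dorsal axis formation in X. laevis, also had intervals inside 2-fold. Those of the germ cell RNA-binding gene dnd1 (0.46, -0.11 to 1.02) and the germ cell RNA helicase ddx25 (-0.45, -1.06 to 0.15) reached just past 2-fold. For velo1 (-0.48, -0.93 to -0.04) and the proprotein convertase pcsk6 (-0.55, -1.02 to -0.09), which processes TGF-beta ligands, the interval lay below 0, although neither passed the adjusted p (0.152 and 0.117, edgeR). The RNA-binding gene rbpms2 (Xetrov72027186) had a difference of -0.70 ± 0.15 at an adjusted p of 0.0184 (edgeR), under the 2-fold limit.

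The most strongly localized of the list in both species, grip2 (Xetrov72008424), a PDZ domain gene of the germ plasm, had no called difference. Its pair values were 8.20, 8.56, 7.92 and 8.59 in X. laevis and 8.18 and 6.38 in X. tropicalis, so the species overlapped. The difference was 1.28 ± 0.41 (adjusted p = 0.0830, edgeR), and it was 1.95 without X. tropicalis pair 1 (adjusted p = 0.0198) and 0.13 without pair 2 (adjusted p = 0.902). It was called also without X. laevis pair B_t1 (adjusted p = 0.0222), and over 20 alternatives the adjusted p lay between 4.22e-13 and 0.902. For the Wnt ligand wnt11b (Xetrov72014262), the maternal dorsal signal in X. laevis, the difference was 0.79 ± 0.25 (0.23 to 1.35) and for the ephrin efnb1 (Xetrov72016492) 0.92 ± 0.34 (0.14 to 1.70).

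None of the 8 known animal mRNAs tested had a called difference. With 5.63% of all models called, 0 of 8 says little. Called animal were 3 of the 8, the same 3 in each species, against 3.17% of all models in X. laevis and 3.15% in X. tropicalis. These were the ectodermal transcription factor foxi2 (Xetrov72039397, difference -0.33 ± 0.33), the epidermal factor grhl1 (Xetrov72000684, 0.80 ± 0.27) and the Nodal antagonist dand5 (Xetrov72b000089, 0.33 ± 0.31). The transcription factor sox3 (Xetrov72016063, 0.63 ± 0.30) went against its list: it had 62.2 to 193 CPM in X. laevis vegetal and 28.8 to 76.6 CPM in X. laevis animal samples, and was called vegetal in X. laevis. The transcription factor zic2 (Xetrov72029971, 0.26 ± 0.12), the ATP synthase subunit atp5a1 (Xetrov72020278, 0.29 ± 0.17), the ubiquitin ligase trim33 (Xetrov72018970, -0.19 ± 0.17) and the RNA helicase ddx3x (Xetrov72029420, -0.39 ± 0.31) were called localized in neither species.

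Among signalling genes, 5 of 34 tested TGF-beta and BMP pathway genes (14.7%) were higher in X. laevis, where the background was 2.88%, and 0 in X. tropicalis, where it was 2.75%. That background is mostly models localized in neither species. Of the 34 genes, 7 were called vegetal in X. laevis. Of all 345 models vegetal there, 139 (40.3%) had a called difference higher in X. laevis. The ligand gdf3 (Xetrov72021378) had 4.03, 7.20, 4.24 and 3.88 CPM in X. laevis vegetal and 0.0732, 0.0996, 0.0634 and 0.131 CPM in X. laevis animal samples, against 3.66 and 6.62 CPM in X. tropicalis vegetal and 3.88 and 5.98 CPM in X. tropicalis animal samples. The X. laevis animal levels are at about the level of a few reads, so the difference of 5.54 ± 0.34 (adjusted p = 7.84e-05, edgeR) is uncertain in size. The ligand gdf1, the inhibitory Smad smad7 (Xetrov72021147, 1.36 ± 0.17), the ubiquitin ligase smurf2 (Xetrov72025639, 1.45 ± 0.13) and the BMP receptor bmpr2 (Xetrov72004614, 2.00 ± 0.42) were the others. The mRNAs of smurf2 (log2 fold change 0.51 in X. laevis and -0.94 in X. tropicalis) and bmpr2 (-0.21 and -2.19) lay on the animal side in X. tropicalis, where bmpr2 averaged under 1 CPM in both hemispheres. The call of smad7 was lost without X. tropicalis pair 2 (adjusted p = 0.0513) and without the pair block (0.486), within 4.09e-13 to 0.486 over 20 alternatives.

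None of 35 Wnt pathway genes was called with the 2-fold limit, against 5.63% of all models. Without it 5 of the 35 were higher in X. laevis, among them the receptor fzd7 (0.68), and 6 in X. tropicalis, among them the receptor fzd1 (-0.87), where 6.7% and 5.77% of all models were. Of 23 FGF, EGF and ephrin genes 2 (8.7%, against the same 5.63%) were called. The vegetal minus animal change of both was higher in X. tropicalis. They were the receptor fgfr3 (Xetrov72019483, -2.29 ± 0.32) and the FGF antagonist spry1 (Xetrov72021472, -2.11 ± 0.40). The mRNA of fgfr3 had 20.1 to 32.7 CPM in X. laevis vegetal and 21.7 to 44.7 CPM in X. laevis animal samples, against 7.33 and 9.69 CPM in X. tropicalis vegetal and 2.39 and 2.12 CPM in X. tropicalis animal samples. It was thus vegetal in X. tropicalis alone. The call of fgfr3 was lost without X. tropicalis pair 2 (adjusted p = 0.0891; 9.9e-17 to 0.0891 over 20 alternatives), and that of spry1 without pair 1 (0.0821) or pair 2 (0.149; 7.95e-08 to 0.149 over 19 alternatives).

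Of 42 genes of lipid synthesis, storage and oxidation 6 (14.3%, against 5.63% of all models) were called, 3 in each direction. Beside mogat1 and pld2, the LDL receptor ldlr was higher in X. tropicalis (-1.24), vegetal in both species. Higher in X. laevis were the fatty acid elongase elovl1 (Xetrov72011760, 1.82 ± 0.20), the sterol acyltransferase soat1 (1.70) and the acyl-CoA synthetase acsl3 (1.30). The mRNA of elovl1 had 150 to 208 CPM in X. laevis vegetal and 44.9 to 50.3 CPM in X. laevis animal samples, against 39.9 and 24.6 CPM in X. tropicalis vegetal and 38.6 and 20.4 CPM in X. tropicalis animal samples. Of 20 glycolytic genes 2 (10%, against the same background) were called. The single one higher in X. laevis was pgam1, and the single one higher in X. tropicalis the ADP-dependent glucokinase adpgk (Xetrov72020561), with a difference of -1.59 ± 0.32. The mRNA of adpgk lay on the animal side in both species, more so in X. laevis (log2 fold change -2.56) than in X. tropicalis (-0.95). The call of adpgk was lost without X. tropicalis pair 2 (difference -1.04), and over 20 alternatives its adjusted p ran from 1.39e-14 to 0.189.

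Of 53 kinesin, dynein and dynactin genes, 4 (7.55%, against 5.63% of all models) were called. The dynein light chain dynlt1 (Xetrov72b000281) had 67.3, 83.4, 78.0 and 72.9 CPM in X. laevis vegetal and 52.8, 53.6, 56.0 and 51.7 CPM in X. laevis animal samples, against 226 and 276 CPM in X. tropicalis vegetal and 44.5 and 49.6 CPM in X. tropicalis animal samples. Its difference was -1.93 ± 0.13 (adjusted p = 9.19e-05, edgeR), and the vegetal sample was higher in all 6 pairs. The kinesin-2 motor kif3b (Xetrov72016924), of the family that carries vegetal mRNAs in X. laevis oocytes, had 60.6, 64.9, 80.1 and 72.3 CPM in X. laevis vegetal and 90.1, 102, 103 and 114 CPM in X. laevis animal samples, and 189 and 193 CPM in X. tropicalis vegetal and 96.3 and 73.2 CPM in X. tropicalis animal samples. The hemispheres of each species did not overlap and pointed in opposite directions, with a difference of -1.75 ± 0.15 (adjusted p = 0.000301, edgeR). The kinesin kif13a (Xetrov72033109) was animal in X. tropicalis alone, with a difference of 1.68 ± 0.12, and the mitotic kinesin kif14 was higher in X. tropicalis (-1.34).

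Among 34 vegetal RNA transport and anchoring factors 3 (8.82%, against 5.63% of all models) were called, kif3b, sybu and the keratin krt8 (Xetrov72029943). The mRNA of krt8 had 751, 887, 678 and 549 CPM in X. laevis vegetal and 710, 653, 496 and 486 CPM in X. laevis animal samples, against 579 and 392 CPM in X. tropicalis vegetal and 171 and 114 CPM in X. tropicalis animal samples. X. laevis ranges overlapped and X. tropicalis ranges did not, with a difference of -1.49 ± 0.14. Of 45 keratin and cytoskeleton genes 3 (6.67%, near the share of all models) were called, with 0 higher in X. laevis. Higher in X. tropicalis were krt8, the cytokinesis scaffold anln (Xetrov72033278, -1.25 ± 0.15) and the myosin phosphatase partner mprip (Xetrov72004565, -1.59 ± 0.32). For mprip the sign means a stronger animal localization in X. laevis, and its call was lost without X. tropicalis pair 1 (adjusted p = 0.0612) or pair 2 (0.202), within 1.09e-07 to 0.428 over 20 alternatives.

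Of 55 oocyte translation control genes 6 (10.9%, against 5.63% of all models) were called, 5 higher in X. laevis and 1 in X. tropicalis. Those higher in X. laevis were nanos1, dazl, the deadenylation-linked genes btg2 (Xetrov72023043, 1.21 ± 0.15) and tob2 (2.38), and zfp36l2 (Xetrov72001372, 1.32 ± 0.20), which binds AU-rich elements; bicc1 was the other. The call of zfp36l2 was lost without X. tropicalis pair 2 (adjusted p = 0.0847; 2.06e-12 to 0.116 over 20 alternatives). Of 42 meiosis and cell cycle genes 3 (7.14%, near the share of all models) were called. The spindle checkpoint kinase bub1 (Xetrov72000260) had 149 to 184 CPM in X. laevis vegetal and 139 to 196 CPM in X. laevis animal samples, against 154 and 143 CPM in X. tropicalis vegetal and 420 and 381 CPM in X. tropicalis animal samples, a difference of 1.38 ± 0.13. The ribosomal S6 kinase rps6ka3 (Xetrov72030033, -1.07 ± 0.12) was vegetal in X. tropicalis alone. The phosphatase cdc25b (Xetrov72020237, 1.37 ± 0.30) lost its call without X. tropicalis pair 1 (adjusted p = 0.178) or pair 2 (0.102), within 0.000143 to 0.178 over 19 alternatives.

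Of 25 maternal germ layer and patterning factors 2 (8%, against 5.63% of all models) were called, vegt and the zinc finger repressor snai1 (Xetrov72017571). The vegetal minus animal change of both was higher in X. laevis. The mRNA of snai1 had 26.2, 33.3, 31.1 and 24.4 CPM in X. laevis vegetal and 0.732, 0.672, 1.40 and 0.721 CPM in X. laevis animal samples, against 13.5 and 26.2 CPM in X. tropicalis vegetal and 2.56 and 3.75 CPM in X. tropicalis animal samples. It was vegetal in both species, with a difference of 2.40 ± 0.31 (adjusted p = 0.00184, edgeR). Of 25 piRNA pathway and nuage genes 1 (4%, near the share of all models) was called, exd1 (Xetrov72013661, -2.13 ± 0.13), an exonuclease domain gene of the piRNA pathway in mouse. It had 40.0 to 48.9 CPM in X. laevis vegetal and 54.9 to 64.7 CPM in X. laevis animal samples, against 113 and 91.6 CPM in X. tropicalis vegetal and 34.9 and 30.2 CPM in X. tropicalis animal samples. Of 8 vitelline envelope genes 1 (12.5%) was called, the coat glycoprotein zp3 (Xetrov72003842, -1.19 ± 0.17), vegetal in X. tropicalis alone. The call of zp3 was lost without X. tropicalis pair 1 (difference -1.10), and over 20 alternatives its adjusted p ran from 4.87e-19 to 0.139.

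Housekeeping complexes mostly had no called difference. No gene was called among 74 cytosolic ribosomal proteins, whose differences lay between -0.31 and 0.64, 67 nuclear-encoded oxidative phosphorylation genes (-0.49 to 0.56) or 64 chaperone genes (-0.94 to 0.75). At an adjusted p under 0.05 with no fold limit, the ribosomal proteins still had 0 calls, the oxidative phosphorylation genes 2 and the chaperones 5, against 783 (6.7%) and 674 (5.77%) of all models in the 2 directions. Of 69 mitochondrial ribosomal proteins 1 was called (mrpl28, -1.15), of 39 proteasome subunits 1 (psmc3, -1.10), of 46 replication genes 1 (the origin recognition subunit orc5, -1.45) and of 49 DEAD and DEAH box helicases 1 (ddx56, 1.11). These shares were 1.45%, 2.56%, 2.17% and 2.04%, against 5.63% of all models. Without X. tropicalis pair 2 the calls of mrpl28 (adjusted p = 0.0610), orc5 (0.0531) and psmc3 (0.0896) were lost, and that of psmc3 also without pair 1 (0.112). Over 20 alternatives the adjusted p ran from 9.11e-11 to 0.261 for mrpl28, from 1.53e-20 to 0.0531 for orc5 and from 6.38e-13 to 0.112 for psmc3.

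Larger families had a share near the background of 5.63%. Of 153 ZNF and ZBTB zinc finger genes 9 (5.88%) were called, of 117 RNF, TRIM and F-box genes 7 (5.98%) and of 33 SLC25 carriers 2 (6.06%). Of the 141 other solute carriers 9 were higher in X. tropicalis and 1 in X. laevis, where the background was 2.75% and 2.88%. Animal in X. laevis alone were 3 of the 9: slc5a9 (Xetrov72012256), of the sodium-glucose cotransporter family (log2 fold change -1.86 in X. laevis and -0.37 in X. tropicalis), the chloride cotransporter slc12a2 (-1.17 and -0.05) and the phosphate transporter slc20a2 (-1.16 and 0.06). The vesicular nucleotide transporter slc17a9 (Xetrov72043094, difference -2.94 ± 0.38) was vegetal in X. tropicalis alone. There it had 2.75 and 1.98 CPM in vegetal and 0.165 and 0.278 CPM in animal samples. Its difference therefore rests on few X. tropicalis reads and is uncertain in size. Among the ubiquitin ligase families, the membrane ligase gene rnf103 (Xetrov72019817) had 127 to 174 CPM in X. laevis vegetal and 71.5 to 89.6 CPM in X. laevis animal samples, against 197 and 183 CPM in X. tropicalis vegetal and 18.6 and 19.6 CPM in X. tropicalis animal samples, a difference of -2.33 ± 0.15.

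Of 93 protein phosphatase genes 10 (10.8%) were called, against 5.63% of all models, 3 higher in X. laevis and 7 in X. tropicalis. The damage-response phosphatase ppm1d (Xetrov72029801, -1.51 ± 0.12) and the PP2A regulatory subunit ppp2r5a (Xetrov72001088, -1.54 ± 0.16) were animal in X. laevis alone. Of 56 Rab, Arf and Arl small GTPases 7 (12.5%, against the same background) were called, 5 higher in X. laevis, among them arl9 and arl5c (Xetrov72017877, 1.54 ± 0.12), and 2 in X. tropicalis, rab12 (-1.79) and rab20 (Xetrov72031433, -1.77 ± 0.15). Of 48 nucleoporins and transport receptors 2 (4.17%, near the background) were called, the importin tnpo1 (Xetrov72019315, -1.80 ± 0.23), animal in X. laevis alone, and nup88 (Xetrov72029429, -1.13 ± 0.12).

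**Figure D5:**
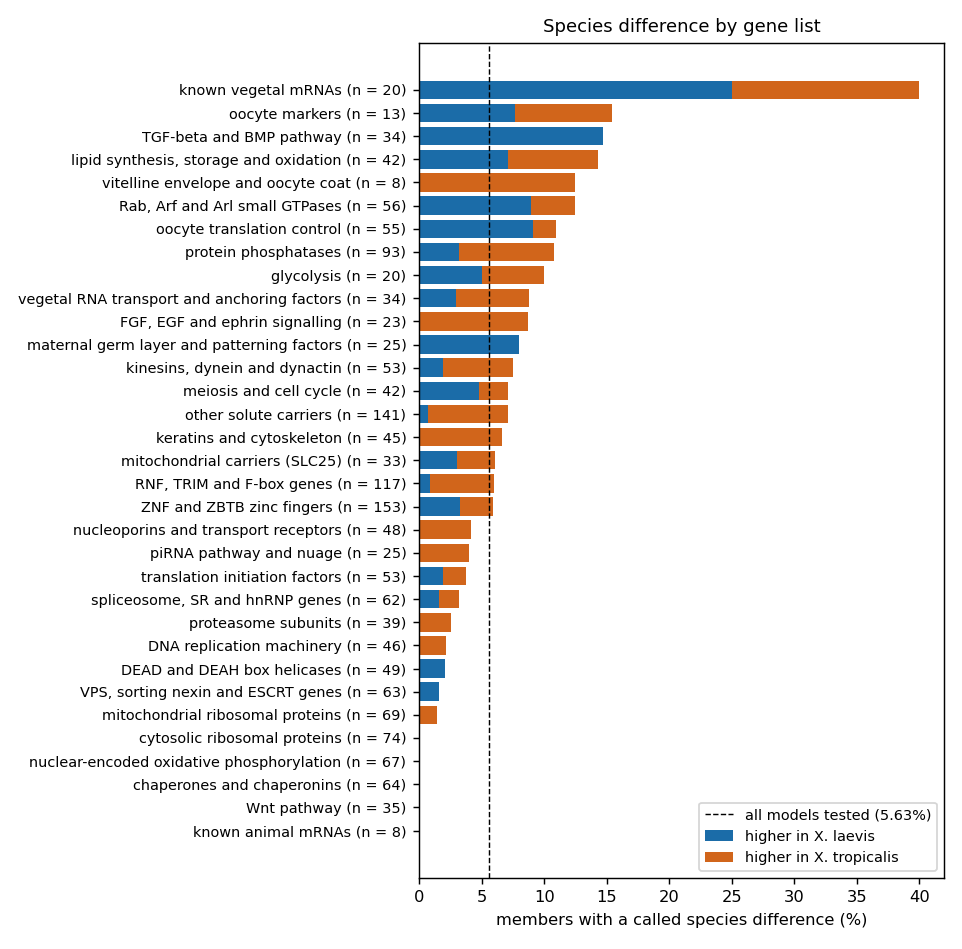
Share of tested members with a called difference between species for each gene list of at least 8 tested members, split into higher in X. laevis and higher in X. tropicalis; the dashed line is the share over all models tested (5.63%). The known vegetal mRNAs reach 40%, the TGF-beta and lipid lists 14.7% and 14.3%, and the ribosomal protein, oxidative phosphorylation, chaperone, Wnt and known animal lists 0%.

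As a measure of variation within a species, the same kind of difference was tested between X. laevis females A and B, 2 pairs each. It was called for 0 of 14517 models (edgeR, lowest adjusted p 0.530), with 254 models at an unadjusted p under 0.05, 107 of them at least 2-fold, and with 4 calls by DESeq2. Those 254 are fewer than an unadjusted limit of 0.05 would pass with no difference, so the test was conservative. With 2 pairs per female, 0 calls does not show that the females were alike. X. tropicalis females could not be compared in this way, since each gave 1 pair.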

How the data were processed

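RNA was measured by sequencing in 8 X. laevis and 4 X. tropicalis oocyte hemisphere samples. Hemispheres were dissected manually and snap-frozen, and RNA came from a proteinase K digest by phenol-chloroform, per the labels' protocols. The deposited files hold raw read counts for 28165 gene models per sample, with no normalization by the authors. Tools named in the submitters' processing notes are Bowtie2 2.1.0, DESeq and edgeR. Genome build, strandedness and read counter are not given in the sources used. Files of both species carry identical X. tropicalis identifiers. The L and S homeologs of X. laevis therefore share a value, and near-identical paralogs and overlapping or antisense genes are uncertain. Because both species share these models, levels are not compared between them.

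Models passing filterByExpr in each species (11688) were scaled with TMM within species. They were fitted with edgeR 4.0.16 in R 4.3.3 as hemisphere within species plus 6 pair blocks, and the quasi-likelihood F test of the difference used Benjamini-Hochberg adjustment. A call needed a 2-fold difference and an adjusted p under 0.05. Standard errors come from the F statistic, and 95% intervals from a t quantile with 8.78 degrees of freedom. Changes within a species, their standard errors and the localized calls came from a fit of each species alone with its pair blocks. The X. tropicalis fit had 1 residual degree of freedom, against 162 from the spread over all models. Its standard errors thus mostly reflect a spread pooled over models, not the 2 pairs of a gene. Pair values are differences in log2 CPM (prior count 2). CPM, with TMM-scaled totals, is given per sample or as a range.

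The labels tie the hemispheres of a pair to a batch or female. Deviations of paired samples from their group means correlated at 0.575 to 0.797 in X. laevis and 0.805 in X. tropicalis. X. laevis samples of the same female but the other batch correlated as well, at 0.655 to 0.779, and those of different females at -0.803 to -0.583. These values therefore do not show the batch pairing itself. With 2 X. tropicalis pairs the deviations mirror each other (-0.805 between females), so the value there says little. The 2 X. laevis batches from a female share that animal. The fit counts the 4 X. laevis pairs as separate blocks, although they come from 2 females. Its p-values therefore do not measure the spread between X. laevis females. The fit uses 1 spread per model for both species (common biological coefficient of variation 0.116, with 4 residual degrees of freedom); fitted apart, X. laevis had 0.132 and X. tropicalis 0.0468. Samples of a group differed by more than sampling noise (chi-square per degree of freedom at least 12.1). On simulated counts for 11688 models, 66 of 100 models with a 2-fold difference had an adjusted p under 0.05 in the right direction. So did 97 of 100 with a 4-fold difference, and 0 of the unchanged models passed. No fold limit was applied there, so these are not call rates. The counts were drawn with 1 common spread for all models of a species. The 0 therefore does not carry over to models with a larger spread.

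Members, gene lists and tests were chosen with earlier results of these data known. Genes named are the 10 largest differences in each direction among called models with a symbol, at least 5 CPM in the higher hemisphere of each species and no overlap of pair values; all tested members of the known lists; and up to 3 called members of each other list. List members beyond these, and examples of classes, were chosen after their values were seen. Alternatives were other scalings, filters and tools (DESeq2 1.42.0, limma 3.58.1), no pair block, summed batches, thinned X. laevis counts and leaving out pairs, females or batches. A further alternative fitted each species apart and set the difference against a normal distribution, which treats the standard errors as exact. This is lenient for 2 X. tropicalis pairs. It gave the low end of the range of adjusted p for rsad2 (5.86e-12), so low ends of these ranges should not be read as support. Figures were drawn with matplotlib 3.10.9.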

Additional observations from a re-analysis of the deposited data

Results flagged for a closer look

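In 20 genes the vegetal minus animal change differed between the species by the test of the difference. The X. laevis minus X. tropicalis differences (log2) were 3.55 for tmem82, 3.44 for pgam1, 3.39 for arl9, 3.38 for slc25a34, 3.18 for trank1, 3.06 for armc5, 2.95 for ptprq, 2.61 for pkp3, 2.44 for ppp1r2 and 2.41 for gk. In the other direction they were -4.63 for mogat1, -4.28 for pld2, -3.94 for pxk, -3.93 for tbc1d20.2, -3.44 for slc25a22, -3.33 for tmem54, -3.20 for acp6, -2.90 for znf238.2, -2.84 for mark4 and -2.54 for lrrc24.

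In 6 of 103 named genes a single X. laevis pair stood apart from the other 3 by Dixon's criterion, which chance meets in about 1 of 20 groups. The B_t1 pair was the lowest for ppp1r2 (1.67), ulk1 (0.21) and snx16 (1.10). The A_t1 pair was the highest for bub1 (0.19) and trim33 (0.17), and the A_t2 pair the lowest for ano1 (-2.88). Of these genes, ulk1 and snx16 lost their call in a leave-out, and the calls of ppp1r2, bub1 and ano1 held in all 6.

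Models expressed highly enough for a test in 1 species alone took no part in the comparison. Of 2829 such models in X. laevis, 241 were localized (92 vegetal and 149 animal), and of 1228 in X. tropicalis, 170 were (69 vegetal and 101 animal). Among the 11688 models tested in both species, 2.95% were vegetal and 3.17% animal in X. laevis. In X. tropicalis these shares were 3.05% and 3.15%.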

How the results depend on the processing

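All 658 called models kept the sign of the difference in each alternative that tested them. Their pair values did not overlap between the species, so leaving out pairs could hardly change a sign. The kept signs are therefore no support. The 337 models higher in X. laevis became 224 among models with at least 5 CPM in both species, 783 without a fold limit and 67 at 4-fold. The 321 higher in X. tropicalis became 674 without a fold limit, 68 at 4-fold and 624 with the X. laevis batches A_t2 and B_t1 only. Without the pair block these counts were 185 and 183, and the calls within X. tropicalis fell to 256, against 894 with the block. Leaving out each pair in turn gave 132 to 377 models higher in X. laevis and 137 to 371 higher in X. tropicalis; the counts without X. tropicalis pair 1 were 153 and 179 and without pair 2 132 and 137. Between X. laevis females 0 models were called by edgeR and 4 by DESeq2. Of the 658 called models, 366 were also called without the pair block, and 515 to 618 when 1 X. laevis pair was left out. The 83 called genes followed singly were mostly chosen for a large difference or a low adjusted p. They include class examples chosen after their values were seen, so their shares do not carry over to all 658. Of these 83, 54 kept their call in all alternatives and 26 lost it in a leave-out, each of them without an X. tropicalis pair. The causes were not tested. Further list members named (bmpr2, ldlr, soat1, acsl3, kif14, tob2, slc12a2, slc20a2 and rab12) were not followed singly through the alternatives. The median standard error of the difference was 0.47 under 1 CPM and 0.15 at 20 CPM or more, by the higher hemisphere's mean in the species where it was lower.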

Other observations

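Models were binned by their mean CPM in the higher hemisphere, taken from the species where it was lower. Called were 4.84% of models under 1 CPM, 6.72% at 1 to 5 CPM, 6.95% at 5 to 20 CPM and 4.88% at 20 CPM or more. With the larger standard error under 1 CPM (median 0.47, against 0.15 at 20 CPM or more), a call there needs a larger difference. Of the 10 models on opposite sides, 2 reached 5 CPM in both species. Models were also matched by symbol to X. laevis genes (RefSeq, assembly X. laevis v10.1). Of the matched models higher in X. laevis 60% had both an L and an S homeolog, of those higher in X. tropicalis 55.2%, and of all tested models 56.7%.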
